A study of Mus musculus with 2 samples.

Results

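Imprinted genes are transcribed mainly from the copy inherited from one parent. The 38 examined here were a fixed list of mouse imprinted genes, all found in the GENCODE M21 annotation, 31 of them protein-coding and 7 long noncoding RNAs, out of 21938 protein-coding and 10155 long noncoding RNA genes. They fell into 18 clusters or single genes. Open chromatin had been mapped by DNase-seq, in which DNase I cuts accessible DNA. The 2 libraries came from female B6CASTF1/J left cerebral cortex at 10 days of age. B6CASTF1/J is the first-generation cross of C57BL/6J with CAST/EiJ, so every cell carried 1 chromosome set of each strain, and the libraries were the only group, replicates 1 and 2. The deposited files hold peaks, footprints (short protected stretches inside open DNA) and positions with a low false discovery rate of their cut rate, none of them split by parental allele, so an open promoter here may be open on 1 copy or on both.

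Imprinting rests on DNA methylation placed differently in egg and sperm. A germline control region keeps that mark through development and usually acts as the promoter of a gene or noncoding RNA that is active on the unmethylated copy. A somatic region gains its mark later, under the influence of the germline one. KRAB zinc-finger proteins such as ZFP57 hold the mark on the methylated copy, while CTCF and YY1 are among the factors that bind unmethylated control regions. In the brain imprinted genes act in growth, feeding, maternal care and synaptic signalling, and several have a neuron-specific pattern of parental silencing.

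By textbook assignment, 16 members have a start at a germline region, 8 have a start at a somatic region and 14 have neither. Methylation itself was not measured in these files. A member counted as open when each library had a peak of its stricter list within 500 bp of any annotated transcript start, and its promoter signal was the highest such peak in each library. Signal is the deposited height of a peak on a library scale that the sources used here do not give. With 1 group of 2 libraries there was no contrast between samples to test, and all counts, medians and differences are descriptions. Whether the libraries came from separate animals, litters or days is not stated, so animal and technical variation cannot be told apart in the spread between them.

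The stricter lists held 60071 peaks in replicate 1 and 70563 in replicate 2, with median signals of 0.830 and 0.925. Every signal was a whole multiple of a library step (within 0.05 of a whole number), and the median peak was 120 steps in replicate 1 and 122 in replicate 2. If a step is 1 cut, counting error alone is 9.13% and 9.05% of such a peak. As a check of the tissue label, 3 of 9 cortical neuron markers had a promoter peak in both libraries (Emx1, Neurod2 and Neurod6), and Tbr1 (1.76) had one in replicate 2 only. The 8 choroid plexus markers had no peak near a start in any of the lists. Of the markers of meninges and vessel walls, 3 of 9 had one in both libraries (Col1a1, Foxc1 and Rgs5), and of 6 liver markers Apoh had one, at 2.67 in replicate 1 and 0.652 in replicate 2. The part of these cells in the results was not tested. In such bulk tissue, fewer cells with an open site and less opening per cell cannot be told apart.

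Most imprinted genes had open starts in the 10-day cortex. A promoter peak was found in both libraries at 29 of the 38 members, 24 of 31 protein-coding members against 55.2% of all protein-coding genes, and 5 of 7 noncoding members against 19.7% of all long noncoding RNA genes. All 16 members with a germline-controlled start were open, as were 5 of 8 with a somatic-controlled start and 8 of the other 14. Phlda2 had a peak in replicate 2 only, and H19, Igf2, Ndn, Dlk1, Rian, Rtl1, Ddc and Zdbf2 had none. In the larger, looser lists 26 protein-coding members (61.0% of all such genes) and 5 noncoding members (25.3%) were open in both libraries, Phlda2 and Zdbf2 being added. A footprint near a start was called in both libraries for 26 protein-coding members (background 58.2%) and 4 noncoding members (background 21.9%).

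With a missing peak taken as 0, the median promoter signal was 1.49 over all 38 members. It was 1.53 over the 31 protein-coding members, against 0.947 over all protein-coding genes, and 0.838 over the 7 noncoding members. The median was 1.60 for germline-controlled starts, 1.07 for somatic-controlled starts and 0.876 for the others, while open protein-coding genes as a whole had a median of 2.89. Of the 16 germline members, 14 lay below that last value, and 15 did when Inpp5f was read at its internal, imprinted start. The 5 open somatic members lay below it too. A median has as many open genes below it as above. Peg3 and Usp29 share their highest peak, as do Peg10 and Sgce, so these pairs count the same peak again. Peg3 and Usp29, with a mean of 2.86, lay just under 2.89. CpG content of the start bears on this reading: 19 of the 38 members had a peak in both libraries and a signal above the median of protein-coding genes with a like CpG observed over expected, in 10 classes of equal size, taken at the gene start with a missing peak at 0. In the lowest 4 classes that median was 0, so any open member there counted as above it. Snrpn, Mest, Mirg and Blcap were such members. The members' own choice of start was not matched in that comparison. Among the 29 open members, 27 had the higher signal in replicate 2, with a median log2 ratio of replicate 2 over replicate 1 of 0.52 (range -0.12 to 0.80). The same median was 0.56 over all open protein-coding genes, and no member differed between the libraries by as much as 2-fold.

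**Figure D1:**
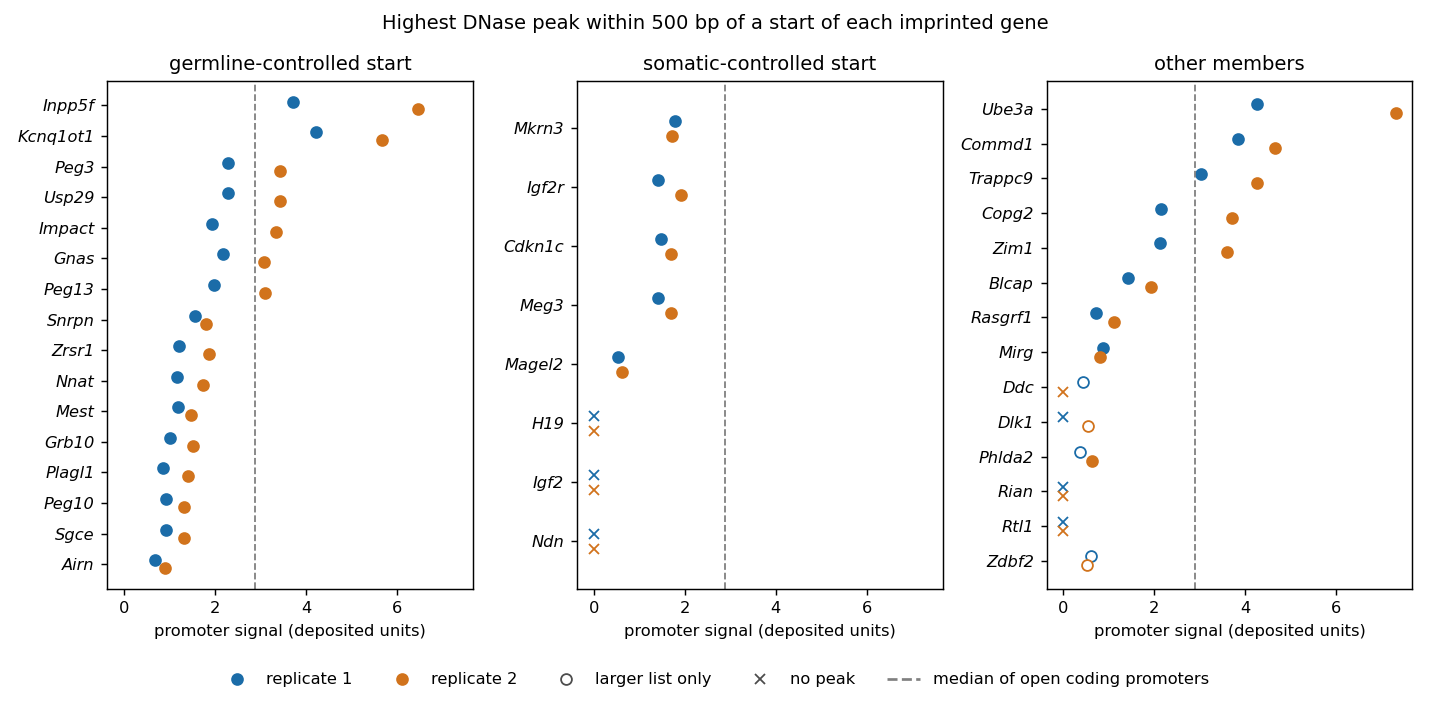
Promoter signal (deposited units) of each of the 38 members in replicate 1 (blue) and replicate 2 (orange), by class of start. Filled circles are stricter-list peaks, open circles are peaks of the larger list only and crosses are no peak. The dashed line is the median of open protein-coding promoters, 2.89. Inpp5f and Kcnq1ot1 are the germline members to the right of it in both libraries. Inpp5f is drawn at its outer start, which is not imprinted. Its internal, imprinted start, at 1.56 in replicate 1 and 2.58 in replicate 2, would lie to the left of the line.

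The Peg3 domain had a group of strong peaks just past its start. Peg3 encodes a zinc-finger protein expressed from the paternal copy and tied to maternal behaviour in mice, and Usp29, a deubiquitinase gene, starts beside it in the opposite direction. Both shared their highest promoter peak, with 2.29 in replicate 1 and 3.43 in replicate 2 (mean 2.86 ± 0.803, SD, n = 2), and a weaker one of 0.429 and 0.515. Peg3 lies at chr7:6703892-6730431 on the minus strand of GRCm38 (mm10). The first 4 kb of Peg3, in which its germline region lies, held 7 peaks of replicate 1 shared with replicate 2, some overlapping each other, in 5 separate stretches. The peak at 860 bp past the start had 3.08 in replicate 1 and 5.62 in replicate 2, and the peak at 1810 bp had 3.09 and 4.78, so both stood above the promoter peak in each library. Zim1, a maternally expressed zinc-finger gene, had 2.12 in replicate 1 and 3.60 in replicate 2.

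This stretch of Peg3 is known for repeated YY1 sites. The YY1 core GCCATNTT, searched on both strands, occurred 12 times in these 4 kb, 10 of them inside shared peaks and 4 of them under footprints of both libraries. The peak past the start is printed because it carried 2 of these matches, both under footprints called in both libraries. Only 0.190% of 250-base windows on shared peaks away from coding starts held 2 or more matches, and 4.58% held any. A footprint of both libraries covered 21.9% of the YY1 matches in those windows. The window, chr7:6729446-6729695, read on the minus strand and so in the direction of Peg3, lies in an intron. Capitals mark YY1 cores, the ZFP57 hexamer TGCCGC and the NF-Y box CCAAT, or the reverse complement of each.
Peg3 downstream: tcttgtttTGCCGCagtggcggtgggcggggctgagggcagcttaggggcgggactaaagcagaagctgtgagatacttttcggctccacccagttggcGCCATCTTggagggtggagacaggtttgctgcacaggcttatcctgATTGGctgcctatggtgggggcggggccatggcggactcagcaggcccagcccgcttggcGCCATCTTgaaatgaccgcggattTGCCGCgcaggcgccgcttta

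Members of the Prader-Willi and Angelman cluster on chromosome 7 differed widely. Ube3a, a ubiquitin ligase silenced on the paternal copy in neurons, had the highest signal of all 38 members, 4.26 in replicate 1 and 7.31 in replicate 2 (mean 5.78 ± 2.15, SD, n = 2). Snrpn, which encodes a spliceosome protein, had 1.55 and 1.80 in replicates 1 and 2 at the downstream of its start sites. The upstream Snrpn start, 135108 bp away, had no peak in replicate 1 and 0.424 in replicate 2. Mkrn3, a gene that restrains the onset of puberty, had 1.80 in replicate 1 and 1.72 in replicate 2 and was, with Mirg, an open member that was not higher in replicate 2. Magel2, a ubiquitin ligase adaptor of the hypothalamus, was weak, at 0.540 in replicate 1 and 0.629 in replicate 2. Ndn, which encodes the growth-restraining protein necdin, had no peak in any list near its only start in GENCODE M21. A peak at 1712 bp past that start, inside the gene, had 1.27 in replicate 1 and 1.55 in replicate 2. Whether this peak marks another start of Ndn was not tested, so Ndn counted as without a promoter peak by annotation only.

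The Snrpn start is shown for its ZFP57 hexamers. The window at chr7:60005112-60005285, minus strand, holds 174 bases of upstream DNA with 2 matches to TGCCGC, written GCGGCA where the match is on the other strand, and 1 of them lay under footprints of both libraries. Of windows on peaks at coding starts, 20.1% held the hexamer, and footprints of both libraries covered 17.1% of its matches there.
Snrpn: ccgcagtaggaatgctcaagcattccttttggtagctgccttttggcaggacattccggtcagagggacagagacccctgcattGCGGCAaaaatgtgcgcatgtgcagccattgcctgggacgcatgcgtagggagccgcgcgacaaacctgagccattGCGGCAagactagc

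Kcnq1ot1, an antisense RNA that silences its neighbours in cis, had the highest signal among the noncoding members. The gene lies at chr7:143203458-143296549 on the minus strand, and its start had 4.22 in replicate 1 and 5.66 in replicate 2 (mean 4.94 ± 1.02, SD, n = 2), higher than 77.6% of open protein-coding genes. Kcnq1, the potassium channel gene in which it lies, had no peak near its start in any list. Cdkn1c, a maternally expressed brake on the cell cycle, had 1.47 in replicate 1 and 1.69 in replicate 2. Phlda2, which limits placental growth, had 0.381 in the larger list of replicate 1 and 0.637 in replicate 2. Both of these genes lay below Kcnq1ot1 in each library, and a link of that order to silencing was not tested.

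The Kcnq1ot1 window, chr7:143296546-143296795, is printed because it held 3 NF-Y boxes, all in the orientation of the transcript and all under footprints of both libraries. The NF-Y box was added to the search after the sequences had been seen. It occurred in 33.8% of windows on peaks at coding starts, 12.1% held 2 or more, and footprints of both libraries covered 18.1% of its matches. Only 5 CpG dinucleotides fell in these 250 bases.
Kcnq1ot1: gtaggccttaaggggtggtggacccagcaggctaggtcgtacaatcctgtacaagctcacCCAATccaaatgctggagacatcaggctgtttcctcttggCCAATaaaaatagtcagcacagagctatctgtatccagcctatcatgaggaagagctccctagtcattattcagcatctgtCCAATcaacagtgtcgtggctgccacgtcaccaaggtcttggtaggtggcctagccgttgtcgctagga

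**Figure D2:**
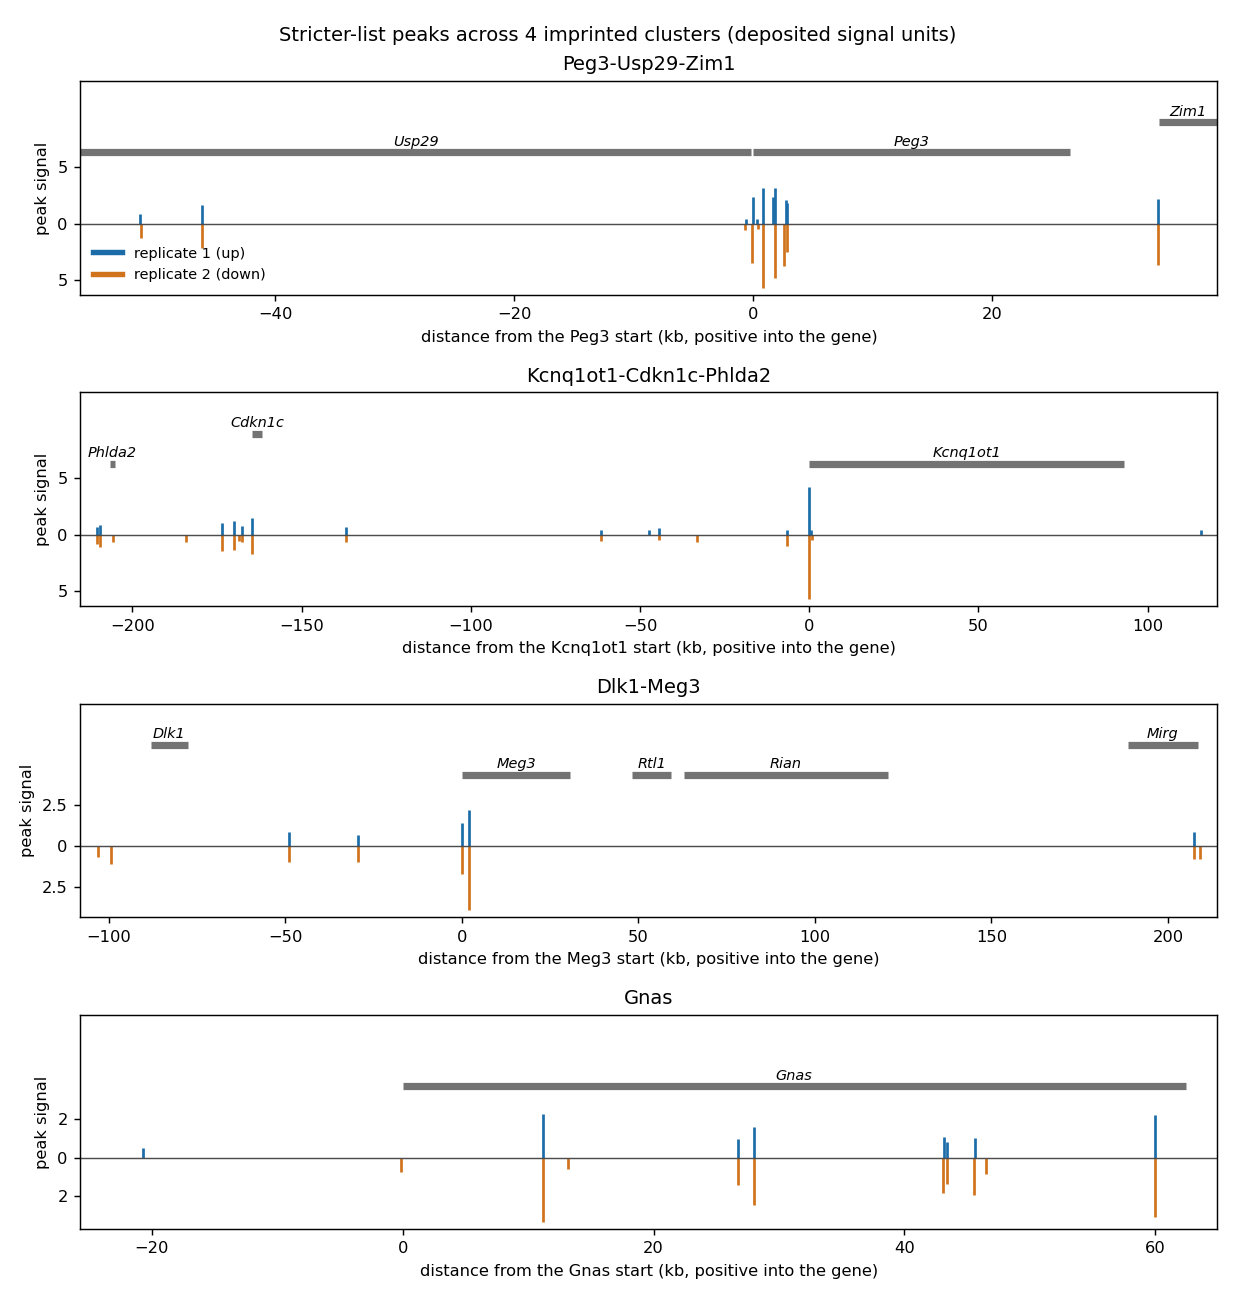
Stricter-list peaks in 4 imprinted clusters, with distance from the named start on the horizontal axis (kb) and signal on the vertical axis, replicate 1 upward in blue and replicate 2 downward in orange; grey bars are gene bodies. The Peg3 and Kcnq1ot1 panels cover only part of their clusters. The peak at the Nap1l4 start, 7.23 in replicate 1 and 9.74 in replicate 2, falls outside the Kcnq1ot1 panel. Within the panels, Peg3 shows a group of peaks in its first 4 kb and Kcnq1ot1 a single high peak at its start. Meg3 shows its higher peak past the start, and Gnas shows peaks spread along the gene.

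H19, the maternally expressed noncoding RNA, and Igf2, the paternally expressed growth factor gene beside it, had no peak near any start in any list, and no position there with a false discovery rate under 0.05. Their control region did. It lies 2 to 4 kb upstream of H19, is methylated on the paternal copy, and on the maternal copy binds CTCF, which insulates Igf2 from shared enhancers. Both libraries had 3 peaks there, low but present each time. The peak nearest to H19 had 0.733 in replicate 1 and 0.682 in replicate 2. The next had 0.671 and 0.879 in replicates 1 and 2, and the farthest had 0.595 and 0.811.

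All 3 windows are printed, on the minus strand and so in the direction of H19, because this is the classical CTCF-bound imprinting control region. The CTCF core CGNGGNGGC was chosen in the form known from H19, so its presence here was fixed in advance and is no finding. It occurred 3 times in the region, 1 of them inside a peak of replicate 1 shared with replicate 2. In windows 1 and 2 the core occurred once each, both times under footprints of both libraries. It was found in 2.41% of windows on peaks away from coding starts, and footprints of both libraries covered 36.4% of its matches there. Window 3 had no exact match to the core and held the ZFP57 hexamer in both orientations, with 3 bases between them. Capitals mark the CTCF core and the ZFP57 hexamer, which overlap in window 1. The windows are chr7:142580201-142580450, chr7:142580586-142580835 and chr7:142581685-142581934, none of which overlaps an annotated gene.
H19 window 1: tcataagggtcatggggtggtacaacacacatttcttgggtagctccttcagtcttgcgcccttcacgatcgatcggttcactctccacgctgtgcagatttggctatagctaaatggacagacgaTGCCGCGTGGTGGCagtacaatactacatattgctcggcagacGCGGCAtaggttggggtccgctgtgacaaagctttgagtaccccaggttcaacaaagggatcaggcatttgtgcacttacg
H19 window 2: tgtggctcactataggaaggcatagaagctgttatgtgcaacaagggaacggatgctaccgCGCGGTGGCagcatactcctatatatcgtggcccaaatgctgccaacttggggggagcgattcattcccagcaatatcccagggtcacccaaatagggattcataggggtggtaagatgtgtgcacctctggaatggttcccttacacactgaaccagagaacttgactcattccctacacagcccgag
H19 window 3: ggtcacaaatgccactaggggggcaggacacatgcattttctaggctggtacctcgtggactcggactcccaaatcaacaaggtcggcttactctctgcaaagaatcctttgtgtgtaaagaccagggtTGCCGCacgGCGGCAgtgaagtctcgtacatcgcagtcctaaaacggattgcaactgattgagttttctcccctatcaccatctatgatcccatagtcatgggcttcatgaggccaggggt

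The other control regions that are methylated on the paternal copy looked different. The window 10 to 16 kb upstream of Meg3 and the window 28 to 34 kb upstream of Rasgrf1 held 0 peaks of either list, 0 footprints and 0 positions with a false discovery rate under 0.05 in both libraries. No peak is not proof of closed chromatin, since a site open in few cells or on 1 copy can fall under the threshold of the lists. Rasgrf1 itself, which encodes a Ras activator of neurons, was open, at 0.713 in replicate 1 and 1.11 in replicate 2.

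In the Dlk1-Meg3 cluster the members open in both libraries were Meg3 and Mirg. Meg3, a maternally expressed noncoding RNA, had 1.40 in replicate 1 and 1.70 in replicate 2 at its start (mean 1.55 ± 0.208, SD, n = 2), and a peak 2050 bp into the gene had 2.23 and 3.93. Mirg, the host of a microRNA array at the far end, had 0.872 in replicate 1 and 0.803 in replicate 2, at its last group of starts 18139 bp inside the gene. Between them, Rian, the host of a small nucleolar RNA array, had no stricter-list peak within its body or 50 kb on either side, and Rtl1, a gene of retrotransposon origin, had none at its start. Dlk1, a Notch-related membrane protein, had a peak only in the larger list of replicate 2, at 0.546.

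On chromosome 6, Peg10, a gene of retrotransposon origin, and Sgce, which encodes epsilon-sarcoglycan and causes myoclonus-dystonia in humans, shared their highest promoter peak. It had 0.913 in replicate 1 and 1.31 in replicate 2, lower than the peak 1985 bp into Peg10, which had 2.63 and 4.51. Mest, a paternally expressed gene of the alpha/beta hydrolase fold, was open at 1.19 in replicate 1 and 1.48 in replicate 2. That peak sat at a start 14503 bp inside the annotated gene, and the outermost Mest start had no peak. Copg2, a coat protein gene that overlaps the end of Mest, had 2.15 in replicate 1 and 3.71 in replicate 2, above Mest in each library.

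Both germline promoters are shown because each carries the ZFP57 hexamer upstream of its start. No hexamer match in the Mest or Peg10 promoter window lay under footprints of both libraries. Among the germline promoter windows with the hexamer, only that of Snrpn had a match under such footprints. The Mest window is chr6:30737888-30738049 on the plus strand. The Peg10 window is chr6:4747208-4747305, plus strand, the DNA between the opposed starts of Peg10 and Sgce. Of 14 distinct promoter windows of germline members, 5 held the hexamer, against 20.1% of windows on peaks at coding starts, and none held the CTCF or the YY1 core, found in 17.0% and 7.88% of those windows at coding starts. These 14 include the outer Inpp5f start and the internal Gnas start, which are not imprinted control regions.
Mest: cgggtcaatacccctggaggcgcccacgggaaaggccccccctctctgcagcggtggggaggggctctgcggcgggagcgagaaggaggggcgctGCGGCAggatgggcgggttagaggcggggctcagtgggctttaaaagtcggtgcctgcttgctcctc
Peg10: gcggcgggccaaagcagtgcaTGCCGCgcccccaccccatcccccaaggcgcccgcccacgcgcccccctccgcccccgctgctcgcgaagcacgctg

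Gnas, which encodes the stimulatory G protein alpha subunit and has several imprinted promoters, was open along its length. Its first start, of the Nesp transcript, had no peak in replicate 1 and 0.735 in replicate 2, and the next start, 13539 bp on, had none in replicate 1 and 0.591 in replicate 2. The starts at 43250 bp had 1.06 and 1.81 in replicates 1 and 2, and those at 45686 bp had 1.03 and 1.95. The highest Gnas peak, 2.18 in replicate 1 and 3.09 in replicate 2, was at an internal start 60330 bp from the first, in a 250-base window with 0 CpG dinucleotides, so the Gnas value used above does not come from a CpG-rich imprinted promoter. Nespas, the antisense RNA of the locus, had 2.23 in replicate 1 and 3.30 in replicate 2 at its start.

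Grb10, an adaptor that dampens insulin and growth factor signalling, and Plagl1, a zinc-finger regulator of growth, were both open away from their outermost start. Grb10 had 1.01 in replicate 1 and 1.52 in replicate 2 at starts 11951 bp inside the gene and none at its first start. Plagl1 had 0.858 and 1.39 in replicates 1 and 2 at starts 30187 bp inside. In Mest, Snrpn and Gnas, too, the highest peak stood at an internal start while the outermost annotated start had no peak in at least 1 library. Counting the outermost start alone, 23 of the 38 members were open. No share over all genes is given for that setting, and the 55.2% of protein-coding genes above counts any start, so it is no reference here. Ddc, which makes dopamine and serotonin and neighbours Grb10, had no stricter-list peak at a start, but a peak 2500 bp from the nearest of them had 2.19 in replicate 1 and 2.79 in replicate 2.

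A germline-controlled start often lies inside another gene, and both were read in the same libraries. In bulk tissue the 2 starts may be open in different cells, so a pair is not matched for cell type. The 8 such pairs were put together after their values had been seen, and 3 of them include a gene outside the 38. With both genes read at their outermost group of starts, and Inpp5f at its internal start, the controlled start was the lower in both libraries in 4 of 8 pairs. Zrsr1, a paternally expressed splicing factor gene, had 0.941 in replicate 1 and 1.40 in replicate 2 at its outer start, against 3.83 and 4.66 at its host Commd1, a copper-handling gene. The internal start of Inpp5f, a phosphoinositide phosphatase gene, had 1.56 and 2.58, against 3.72 and 6.47 at the outer start, a ratio of 0.421 in replicate 1 and 0.400 in replicate 2. Airn, the antisense RNA that silences Igf2r in most tissues but not in neurons, had 0.685 and 0.910, against 1.43 and 1.93 for Igf2r, the receptor that clears IGF2. Peg13, a noncoding RNA, had 1.98 and 3.10, against 3.03 and 4.26 for Trappc9, a trafficking gene.

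The other pairs did not follow that order. Nnat, a neuronal proteolipid gene, had 1.17 in replicate 1 and 1.74 in replicate 2, against 1.07 and 1.33 at the outer start of its host Blcap. That order depended on the starts used: the peak at the first Nnat start had 0.969 and 1.15, below the outer Blcap start, and the middle Blcap starts had 1.42 and 1.94, above Nnat. Mcts2 was above its host H13, at 2.78 and 4.84 against 2.62 and 4.01. Nap1l5 was below Herc3 in replicate 1 (1.12 against 1.21) and above it in replicate 2 (1.64 against 0.948). Kcnq1 had no peak to set beside Kcnq1ot1. The ratio of a pair within a library needs no scaling between libraries. In replicates 1 and 2 it was 0.481 and 0.472 for Airn, 0.653 and 0.728 for Peg13, 0.245 and 0.301 for Zrsr1, 1.10 and 1.31 for Nnat, 1.06 and 1.21 for Mcts2, and 0.926 and 1.74 for Nap1l5, which moved the most.

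**Figure D3:**
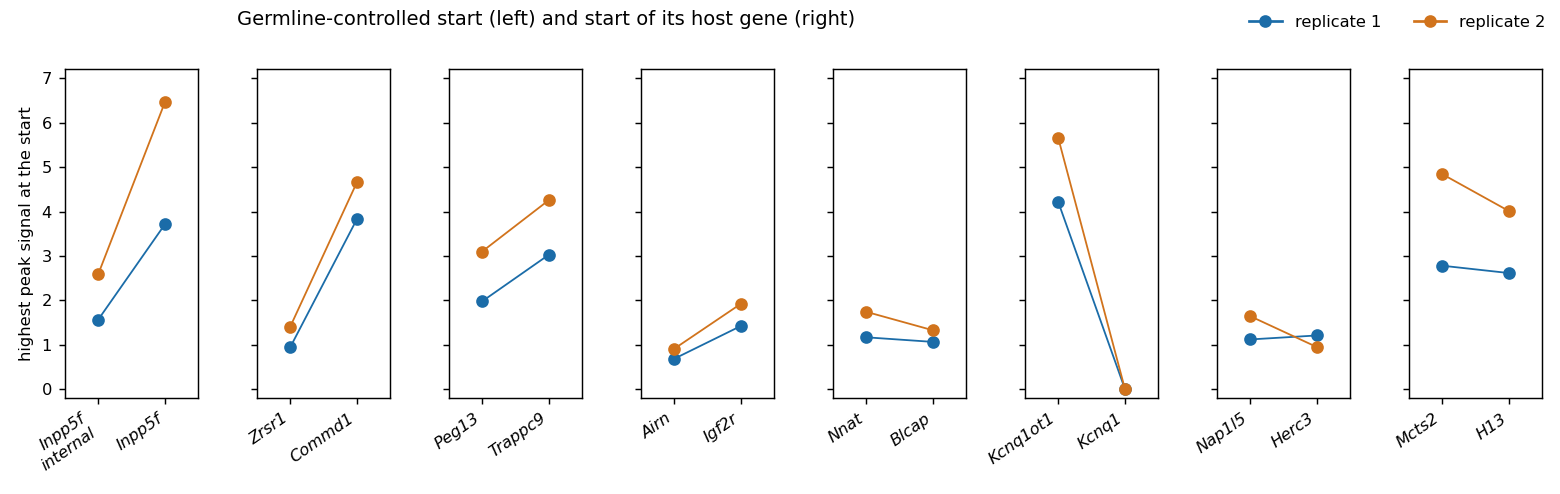
Highest peak signal (deposited units) at a germline-controlled start, left, and at the start of its host gene, right, in each of 8 pairs, with 1 line per library; no peak is drawn at 0. The controlled start lies below its host in both libraries for Inpp5f, Zrsr1, Peg13 and Airn.

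Some members had a stronger peak past a start than at it. Among the 29 open members, 4 had a shared peak within 3 kb downstream of a start, outside every 500 bp window, that was higher than the promoter peak in both libraries. They were Peg3, Meg3, Peg10 and Impact, and 3 of them were among the 24 open protein-coding members, where 2.87% of all open protein-coding genes had such a peak. This feature was looked for after the Peg3 values had been seen. Impact, which encodes an inhibitor of the amino acid sensor GCN2, had 2.55 in replicate 1 and 4.62 in replicate 2 at that peak, and 1.93 and 3.34 at its promoter. The Impact peak lies past an earlier start but 867 bp before the next, so it is not past every promoter of the gene. The Peg3 and Meg3 peaks, too, lie before later annotated starts of their genes, which had no peak in any list. Ndn and Ddc, described above, had a shared peak within 3 kb downstream of a start, with no stricter-list peak at an annotated start.

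Around the genes, shared peaks were about as frequent as elsewhere. A member with 50 kb on either side held a median of 6 shared peaks, against 5 over all protein-coding genes, and 3.13 per 100 kb against 3.26. The clusters spanned a wide range, counted once each because neighbouring windows overlap. Nnat-Blcap had 7.83 shared peaks per 100 kb, Impact 7.29, Peg3-Usp29-Zim1 5.56 and Zrsr1-Commd1 5.37. At the other end, Dlk1-Meg3 had 1.26, the Snrpn-Ube3a-Ndn cluster 1.18 over 3291 kb, and Zdbf2, a paternally expressed gene of unclear function, 0. Zdbf2 did have peaks of the larger lists at its start, at 0.623 in replicate 1 and 0.523 in replicate 2. The highest distal peak of a member cluster near no coding start stood 6437 bp upstream of Trappc9, with 6.17 in replicate 1 and 9.87 in replicate 2.

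**Figure D4:**
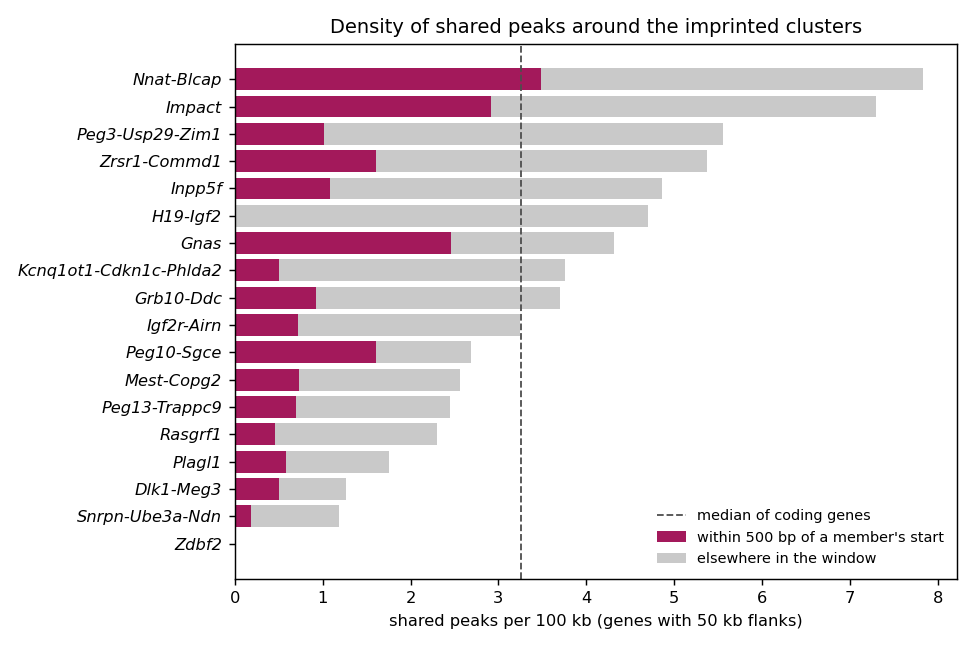
Shared peaks per 100 kb in each of the 18 clusters, counted over the genes with 50 kb flanks, with peaks within 500 bp of a member's start in purple and all others in grey. The dashed line is the median over protein-coding genes, 3.26; the bars run from 7.83 at Nnat-Blcap to 0 at Zdbf2.

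Other imprinted genes and the proteins that keep or read imprints were listed for comparison. Of 37 further imprinted genes, some of them not protein-coding, 19 were open in both libraries. The share over all protein-coding genes was 55.2%. The median signal was 0.508 over the list, against 0.947 over all protein-coding genes. The highest were Nap1l4 (7.23 in replicate 1 and 9.74 in replicate 2), Tssc4 (6.37 and 10.4) and Bcl2l1 (3.98 and 7.18). Of 19 maintenance and reading factors 16 were open, with a median of 3.14. Among the highest were Arid4a (8.40 and 9.53) and Mbd1 (4.58 and 8.66), and those without a peak were Dnmt3l, Dppa3 and Ctcfl, which act in germ cells or the early embryo. Ctcf (2.01 and 3.09), Yy1 (4.19 and 7.07) and Zfp57 (0.969 and 1.06), whose motifs were searched above, were open.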

How the data were processed

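The 2 DNase-seq libraries of left cerebral cortex formed 1 group. Per the labels, the data are on mm10. What aligner, peak caller and footprint caller were used, with what settings, is not given in the sources used here. Deposited peak lists hold 1 signal value per peak; their score, p and q columns are unfilled. The deposited footprint lists carry a p-value of 0.01 throughout, and the deposited position lists p-value-like false discovery rates under 0.05. Each library has 2 peak lists, of which the shorter was taken as the stricter.

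Starts were those of GENCODE M21 on GRCm38.p6; all 21 chromosome names of the peak files matched. Windows were 500 bp around starts and 50 kb around bodies, and peaks were shared on an overlap of 1 bp. The CTCF, YY1, ZFP57 and NF-Y motifs spelled out above were searched on both strands in 250-base windows centred on peaks; printed windows leave out annotated UTR bases, and only some listed windows are printed. SDs are over n = 2 libraries and no p-value was computed. Reads were not assigned to alleles, and differences of CAST/EiJ from the reference may affect mapping. The script recovered 200 of 200 genes with simulated peaks. Python 3.11.15, pandas 2.3.3, pysam 0.24.0 and samtools 1.23.1 were used.

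Members, start classes (from textbook knowledge), gene lists and the rule naming genes (all 38 members, and the 3 highest or up to 5 exceptions of other lists) were chosen with earlier results of these data known. A few genes of these lists are not reported here. The NF-Y box, the host pairs, the peaks past promoters, the first 4 kb of Peg3 and the choice of Ctcf, Yy1, Zfp57 and Tbr1 followed after values had been seen. The alternatives were other windows, lists, overlaps and flanks, stronger peaks, signal in steps, and each library alone.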

Additional observations from a re-analysis of the deposited data

How the results depend on the processing

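Of 53 recomputed values, 50 stayed within their limits and 3 moved. The limits were wide: 23 open members against 29 counted as unchanged. Only the log2 ratio could have changed sign, which it did not, since the other values are counts or medians that cannot be negative. The median member signal was 204.5 when written in steps of the library, a change of unit. The median number of shared peaks was 2 without flanks and 3.13 when counted per 100 kb. Open members numbered 31 in the larger lists, 23 at the outermost start alone and 25 with the stronger 50% of peaks. Without replicate 1 or replicate 2 they numbered 30 and 29. Apart from the larger lists, no share over all genes is given for these settings. Members with footprints numbered 23 when footprints had to overlap reciprocally by 50%. The median signal was 1.69 without replicate 1 and 1.20 without replicate 2. The median log2 ratio of replicate 2 over replicate 1 was 0.39 in steps, against 0.52 as deposited. No paired analysis was possible because the libraries form 1 group.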
